A study of Mus musculus with 30 samples.

Results

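The transcripts described here encode enzymes and a transporter that compete for arginine in myeloid cells, together with a neighbouring enzyme of activated macrophages. They are Nos2 (inducible nitric oxide synthase), Arg1 and Arg2 (the arginase isoforms), Ass1 and Asl (which rebuild arginine from citrulline), Slc7a2 (the arginine transporter CAT2), Odc1 (ornithine decarboxylase) and Acod1 (the itaconate-producing enzyme, also known as Irg1, the name under which it is listed in both tables). The genes were taken by symbol, and 7 of the 8 symbols had a row in both tables, which hold 13353 genes in bone marrow (BM) and 17059 genes in adipose tissue macrophages (ATMs). Ass1 was not analysed here. Nos2 was selected on its level in the BM of obese Vehicle mice against WT. Its values in BM against the Vehicle and WT groups, and the values of all genes in BM for Vehicle vs WT, are therefore given as a description without a test.

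RNA was sequenced from whole BM cells and from F4/80+ cells sorted from visceral adipose tissue, with 3 libraries from 3 mice for each of 5 groups per tissue. Recipients were C57BL/6J WT mice or leptin-deficient Ob/Ob mice of both sexes, labelled as 12 to 14 weeks of age without the step at which that age applied, irradiated with 700 and then 400 cGy and given Shp2 E76K/+;LysM-Cre+ CD45.2 marrow mixed with an equal number of Boy/J CD45.1 competitor cells. LysM-Cre confines mutant Shp2 to cells that have expressed the myeloid gene Lyz2. The competitor cells and radioresistant host cells do not carry it, and no library is labelled with the donor of its cells. From 8 weeks after transplantation the Ob/Ob recipients received, for 30 days, vehicle (Vehicle), the GLP1R agonist beinaglutide at 3 mg/kg (GLP1R agonist), an anti-IL17A antibody at 200 µg per mouse 3 times weekly (Anti-IL17A), or both (Combo), and the WT recipients carried no treatment label (WT). The labelled age is shorter than that schedule would leave at harvest, and the difference was not settled from the labels.

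Arginine is the shared substrate of nitric oxide synthases, which make nitric oxide and citrulline, and of arginases, which make ornithine and urea. Macrophages exposed to interferon and microbial products are known for inducing Nos2, whereas Arg1 is known from macrophages exposed to IL-4 and IL-13 and from immature and suppressive myeloid cells. Ornithine feeds polyamine synthesis through Odc1, and citrulline is returned to arginine by Ass1 and Asl. Acod1 withdraws aconitate from the tricarboxylic acid cycle to make itaconate and is known as one of the most strongly induced genes of inflammatory macrophages.

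On the mouse genome GRCm38, Nos2 lies at chr11:78920787-78960254 on the plus strand, Arg1 at chr10:24915221-24927484 on the minus strand and Arg2 at chr12:79130777-79156301 on the plus strand. Asl lies at chr5:130011258-130029247, Slc7a2 at chr8:40862396-40922308, Odc1 at chr12:17544794-17551505 and Acod1 at chr14:103046977-103056573. Reads were counted without regard to strand and for each gene they touched, and 28.1% of the Arg2 exon length is shared with Gm48780 and Vti1b and 6.95% of that of Slc7a2 with Gm26584, so those 2 counts may hold reads of the neighbours. The other measured members share no exon with another annotated gene.

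RefSeq upstream sequence was matched for 2 of the 7 measured members, Odc1 and Acod1, and is shown for both. A window of 250 bases before the RefSeq start was searched, and as that start lies inside the gene spans given above, 35 bases of the Acod1 window and 79 of the Odc1 window fall within those spans and are not printed. The rest is given 5′ to 3′ on the gene's own strand (plus, GRCm38.p6), with the match to the kappaB motif (3 G, any 5 bases and 2 C) in capitals, at chr14:103046762-103046976 for Acod1 and chr12:17544623-17544793 for Odc1.
Acod1: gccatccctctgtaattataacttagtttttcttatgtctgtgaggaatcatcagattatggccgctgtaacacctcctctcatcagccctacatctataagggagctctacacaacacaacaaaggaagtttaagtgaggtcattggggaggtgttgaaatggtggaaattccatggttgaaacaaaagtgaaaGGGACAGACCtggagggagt
Odc1: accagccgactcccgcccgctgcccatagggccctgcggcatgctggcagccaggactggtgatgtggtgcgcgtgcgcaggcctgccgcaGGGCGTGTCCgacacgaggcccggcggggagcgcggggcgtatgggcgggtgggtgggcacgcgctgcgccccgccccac
The Acod1 window had a GC content of 44.4% and the Odc1 window one of 80%. Counted from the RefSeq start, the kappaB motif stood at -55 to -46 in Acod1 and at -159 to -150 in Odc1, and they occur on either strand in 45.8% of 32851 windows of this length. TATAAA stood at -28 to -23 in Acod1, in the stretch not printed, and occurs in 12.4% of the windows. The GAS letters TTCNNNGAA (7.02% of windows), the ISRE core of GAAA repeated after any 2 bases (2.98%), and the letters TTNCNNAA (36.8%), TGANTCA (6.75%) and CACGTG (6.02%) were searched on both strands as well and stood in neither window.

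BM libraries held 31086184 to 39925495 counts and ATM libraries 24876074 to 45300263, with a coefficient of variation between replicates of 3.51% and 32.5%. Levels are library-size-scaled counts with TMM factors within a tissue (CPM), given as mean ± SD of 3 libraries or for each library, and the tissues were scaled separately. Groups without overlap are common in these data. In the tested comparisons of 2 groups, the libraries did not overlap for 61.0% to 76.0% of all genes in BM. In ATMs the share was 43.4% to 62.9%. In whole BM and in sorted cells alike, a lower level cannot tell fewer cells of a type from less RNA per cell. Markers of other cells moved with the groups in ATMs, since the summed level of 8 neutrophil markers was 239 to 261 CPM in WT, 21499 to 22759 in Vehicle, 179 to 181 with the GLP1R agonist, 390 to 403 with Anti-IL17A and 12455 to 12815 in Combo. Adgre1, which encodes F4/80 itself, was lowest in Vehicle at 42.3 ± 11.2 CPM, against 208 ± 19.2 in WT, 390 ± 14.0 with the GLP1R agonist, 875 ± 16.7 with Anti-IL17A and 400.3 ± 4.92 in Combo. The sum of 14 macrophage and monocyte markers was 3997 to 4281 CPM in Vehicle and 5001 to 16980 in the other groups. Markers of other tissues moved as well. The sum of 5 epididymis and male duct markers was 2990 to 3140 CPM in WT and at most 176 elsewhere. That of 4 pancreatic acinar markers was 561 to 575 in Combo and at most 27.0 elsewhere. In Vehicle, 6 adipocyte markers summed to 3997 to 4245 CPM (1127 to 1294.5 elsewhere) and 6 mesothelial and fibroblast markers to 4962 to 5288 (11293 to 20590 elsewhere). In BM the monocyte and macrophage markers Fcgr1, Cd14 and Ly6c2 moved as Arg1 and Acod1 did, with 218 ± 1.69, 159 ± 3.87 and 2700 ± 94.1 CPM in Vehicle, 19.9 ± 1.72, 10.5 ± 0.516 and 673 ± 31.1 in WT, and means of 7.10 to 11.7, 14.2 to 29.8 and 565 to 912 in the treated groups. These 3 come from the list of 14 such markers, and others on it went the other way. In Vehicle vs WT in BM, as a description, 4 of the 14 were higher, 3 lower and 7 not called. Against Vehicle, 3 fell with the GLP1R agonist, 5 with Anti-IL17A and 7 in Combo, and 1 rose in each. The sum of all 14 in BM was highest in WT, at 15145 to 15419 CPM. It was 7931 to 8073 CPM in Vehicle and 5033 to 9468 under treatment. That of 6 B cell markers was 329 to 345 in Vehicle, 1131 to 1148 in WT and 106 to 349 under treatment. Sex-linked genes moved with the groups too: Xist had 5284 to 6250 counts in BM of Vehicle and 3382 to 3555 in Combo against 0 to 125 in the other 9 libraries, and in ATMs 747 to 1400 in Vehicle and Combo against 0 to 53, so the sex of the cells and these groups cannot be told apart. The part of these cells and of sex in the results below was not tested.

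**Figure D1:**
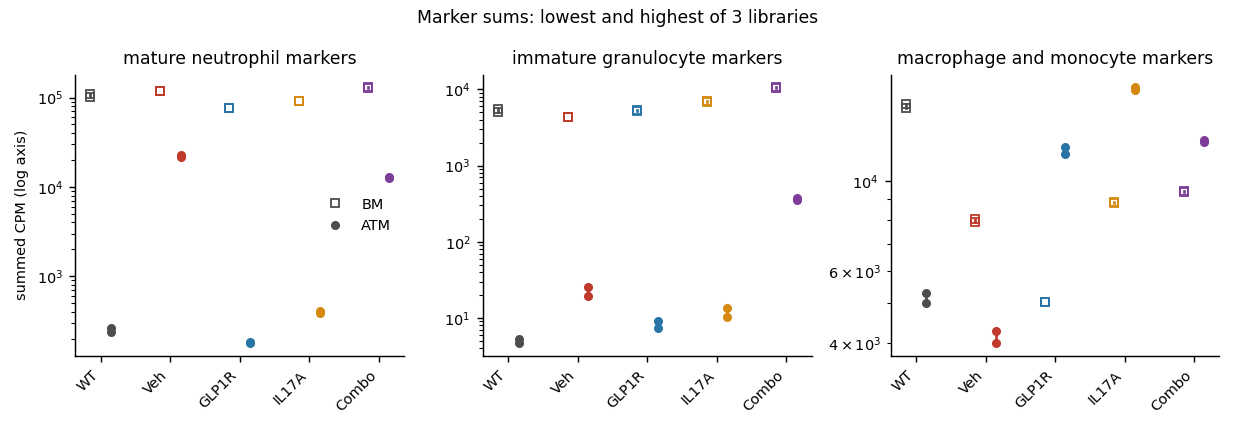
Summed level (CPM, log axis with its own range in each panel) of the neutrophil, immature granulocyte and macrophage markers in the 5 groups, with the lowest and highest of 3 libraries, BM as open squares and ATMs as filled circles. In ATMs the neutrophil sum is 12455 to 22759 in Vehicle and Combo and at most 403 elsewhere, and the immature granulocyte sum is 349 to 372 in Combo and at most 25.9 elsewhere.

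In BM, Nos2, Arg1, Acod1 and Slc7a2 were high in the Vehicle group and low in WT. Arg1, Acod1 and Slc7a2 fell in every treated group, and Nos2 was lower in each of them but kept an intermediate level in Combo. In Vehicle vs WT, 4 of 7 measured members were above the limits of the test and 1 (Arg2) below, where 9.44% of all 13353 genes were called higher and 10% lower, and as this contrast chose the genes nothing is read from that count. Against Vehicle, 3 of the 6 members other than Nos2 fell in each treated group and none rose. The background of genes called was 7.60% higher and 9.08% lower for the GLP1R agonist, 7.65% and 8.46% for Anti-IL17A, and 6.58% and 11.1% for Combo. The same 3 Vehicle libraries serve in all of these comparisons and in Vehicle vs WT, which chose the genes. The falls in BM, with their counts and p-values, are therefore no independent support. These libraries also enter the BM departures from additive effects and the tissue differences below, where the same limit holds.

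In ATMs, 5 of the 7 members (Nos2, Arg1, Arg2, Slc7a2 and Acod1) were called higher in Vehicle than in WT and none lower, against a background of 12.5% of 17059 genes higher and 22.9% lower. With the GLP1R agonist all 5 fell and Odc1 rose (background 10.9% lower and 20.8% higher), and with Anti-IL17A the same 5 fell and none rose (13.1% lower, 22.4% higher). In Combo 4 of the 5 fell, while Arg1 rose further (12.2% lower, 14.1% higher). The median log2 fold change of all genes in ATMs was -0.21 for Vehicle vs WT, 0.19 for the GLP1R agonist and 0.17 for Anti-IL17A against Vehicle, -0.12 for Combo vs WT and -0.21 for the departure of Combo from additive effects, and the members are to be read against those shifts. Other size factors moved these medians by -0.05 to 0.03.

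**Figure D2:**
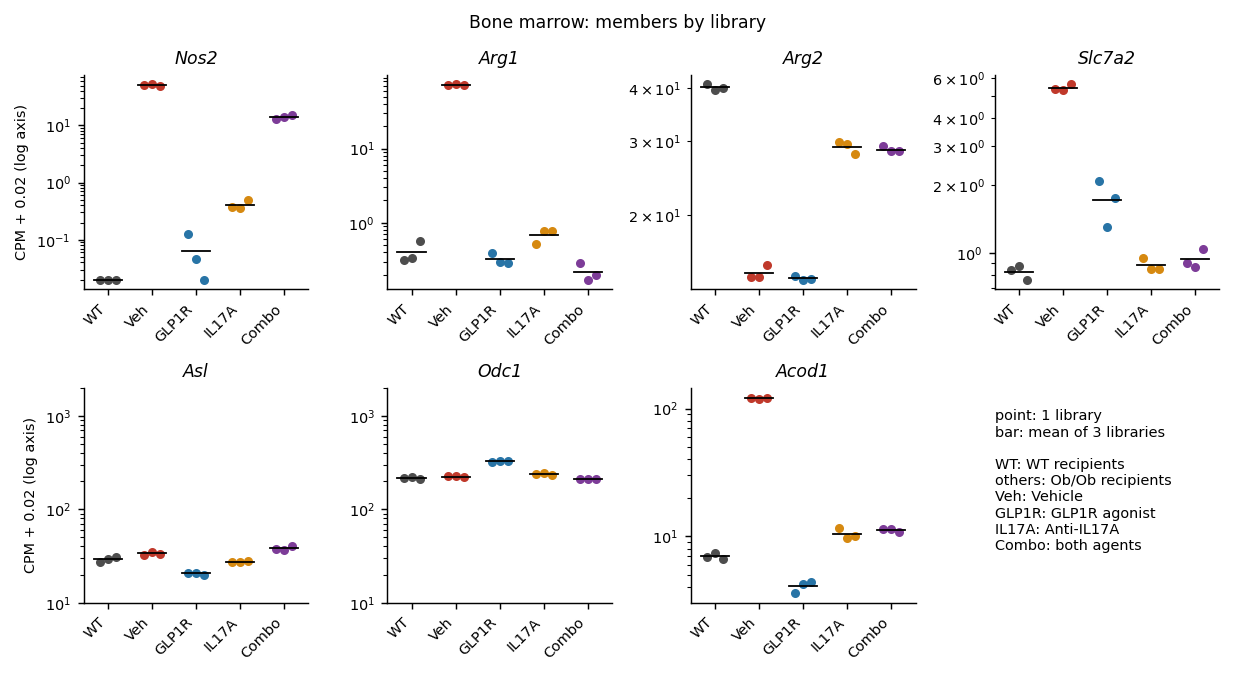
Level of the 7 measured members in BM (CPM plus 0.02, log axis with its own range in each panel) in the 5 groups, each point 1 library and each bar the mean of 3. Nos2, Arg1, Slc7a2 and Acod1 are highest in Vehicle, and Nos2 in Combo stands between Vehicle and the rest at 12.7 to 15.1 CPM.

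Nos2 had no count in the 3 BM libraries of WT, where a count of 0 allows up to 3 counts in a library. The Vehicle libraries had 52.1, 52.6 and 49.2 CPM (1427 to 1705 counts), which is at least 608-fold higher than that floor. The GLP1R agonist libraries had 4, 1 and 0 counts (0.108, 0.0252 and 0 CPM) and overlapped with WT. The Anti-IL17A libraries had 12, 13 and 18 counts (0.350, 0.336 and 0.469 CPM), above every WT and GLP1R agonist library. Combo libraries had 12.7, 14.2 and 15.1 CPM (431 to 503 counts), below every Vehicle library and far above both single agents. The level in Combo was at least 166-fold higher than the floor in WT, given as a description. Vehicle vs WT in BM, which chose Nos2, holds the same WT libraries. The level in Combo exceeded that with Anti-IL17A by a log2 fold change of 5.17 ± 0.16 (SE, edgeR adjusted p = 1.75e-26). It exceeded that with the GLP1R agonist by 8.17 ± 0.23 (adjusted p = 1.19e-28). The latter is a fitted value that depends on the prior count since the agonist libraries hold 0 to 4 counts. Against Vehicle the log2 fold change of Nos2 was -10.04 for the agonist, -7.04 for the antibody and -1.87 for both, as a description.

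In ATMs Nos2 was detected in every library. WT libraries had 2.15, 0.697 and 2.30 CPM, and Vehicle libraries 92.7, 102 and 74.8 CPM, a log2 fold change of 5.71 ± 0.40 (adjusted p = 6.93e-09). The GLP1R agonist libraries had 3.36, 3.14 and 2.34 CPM and the Anti-IL17A libraries 6.61, 3.41 and 2.91 CPM, and these 2 groups overlapped. Against Vehicle, Nos2 fell by 4.93 ± 0.38 on the log2 scale with the agonist (adjusted p = 2.53e-08) and by 4.38 ± 0.37 with the antibody (adjusted p = 5.69e-08). Combo libraries had 21.3, 17.0 and 24.7 CPM, between Vehicle and the single agents as in BM. Against Vehicle its log2 fold change was -2.10 ± 0.33 (adjusted p = 7.29e-05), and Combo was above WT by 3.62 ± 0.38 (adjusted p = 1.25e-06), above the agonist by 2.84 ± 0.36 (adjusted p = 1.12e-05) and above the antibody by 2.28 ± 0.34 (adjusted p = 9.94e-05). The order of groups was thus Vehicle, Combo, Anti-IL17A, GLP1R agonist and WT in both tissues, and the lower ranks overlapped in the GLP1R agonist and WT in BM and in the 2 single agents in ATMs.

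Arg1, the cytosolic arginase, was nearly absent from BM outside the Vehicle group. Vehicle libraries had 70.6, 73.2 and 71.0 CPM (2062 to 2375 counts), against 0.298, 0.313 and 0.557 CPM in WT (11 to 18 counts). The level was 0.377, 0.277 and 0.264 CPM with the GLP1R agonist, 0.496, 0.749 and 0.755 CPM with Anti-IL17A, and 0.266, 0.152 and 0.180 CPM in Combo (5 to 9 counts), and the neighbouring groups in this order of levels overlapped. Arg1 fell against Vehicle by 7.85 ± 0.13 with the agonist (adjusted p = 1.32e-38), by 6.73 ± 0.11 with the antibody (adjusted p = 5.39e-38) and by 8.46 ± 0.14 with both (adjusted p = 2.38e-38). Where Nos2 remained well above the single agents in Combo, Arg1 was lower in Combo than with Anti-IL17A (log2 fold change -1.73 ± 0.32, adjusted p = 1.78e-05). Combo vs WT was not called for Arg1 (log2 fold change -0.92 ± 0.37, adjusted p = 0.0253), but it passed the limit without Combo replicate 1 (-1.18), without WT replicate 1 (-1.09) or without WT replicate 2 (-1.03).

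In ATMs the order was another one. Combo libraries held the most Arg1, at 221, 227 and 199 CPM, followed by Vehicle at 55.5, 42.5 and 57.7 CPM. Anti-IL17A libraries had 21.5, 17.3 and 18.9 CPM, GLP1R agonist libraries 11.9, 13.2 and 9.60 CPM and WT libraries 10.6, 11.9 and 8.70 CPM, of which only the last 2 groups overlapped. Arg1 rose in Vehicle vs WT by 2.32 ± 0.15 (adjusted p = 2.89e-09), fell with the agonist by 2.17 ± 0.15 (adjusted p = 7.07e-09) and with the antibody by 1.43 ± 0.15 (adjusted p = 5.36e-07), and rose in Combo vs Vehicle by 2.06 ± 0.15 (adjusted p = 8.96e-09). Combo exceeded WT by 4.38 ± 0.16 (adjusted p = 6.80e-12), the agonist by 4.23 ± 0.16 (adjusted p = 1.27e-11) and the antibody by 3.49 ± 0.15 (adjusted p = 1.32e-10). The 5 immature granulocyte markers moved with this rise, with a sum of 349 to 372 CPM in Combo, 19.4 to 25.9 in Vehicle and 4.70 to 13.4 in the other groups, among them Mpo at 218 ± 8.02 CPM in Combo and 10.6 ± 4.17 in Vehicle. The 3 erythroid markers measured summed to 5262 to 5413 CPM in Combo, 6660 to 6768 in Vehicle and 1135 to 4063 in the rest. The 4 pancreatic acinar markers summed to 561 to 575 CPM in Combo and at most 27.0 elsewhere. The part of these cells in the Arg1 level was not tested.

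Arg2, the mitochondrial arginase, took other courses than Arg1. In BM it was highest in WT (40.8, 39.6 and 39.9 CPM) and low in Vehicle (14.3, 14.2 and 15.2 CPM) and with the GLP1R agonist (14.3, 14.1 and 14.1 CPM), and the latter groups overlapped. Anti-IL17A (29.7, 29.4 and 27.9 CPM) and Combo (29.1, 28.3 and 28.4 CPM) lay between, overlapping each other. Their log2 fold changes against Vehicle were 0.99 ± 0.06 (adjusted p = 1.00e-18) and 0.97 ± 0.06 (adjusted p = 2.44e-18), just inside the fold limit, and the first passed it without Anti-IL17A replicate 3 or Vehicle replicate 3 (1.02 in each case). Combo exceeded the agonist by 1.01 ± 0.06 (adjusted p = 3.94e-19), which was no longer called without Combo replicate 1 (0.999) or among genes with at least 10 counts in every library (0.99).

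In ATMs Arg2 was highest in Vehicle, at 138, 125 and 144 CPM, against 49.5, 49.9 and 59.2 CPM in WT, a rise of 1.36 ± 0.17 (adjusted p = 7.00e-06). All 3 treated groups lay below WT, with 19.3, 16.4 and 15.7 CPM for the GLP1R agonist, 7.05, 9.92 and 13.7 CPM for Anti-IL17A and 27.8, 25.4 and 29.5 CPM for Combo. Arg2 fell against Vehicle by 2.99 ± 0.19 (adjusted p = 1.71e-09), 3.73 ± 0.19 (adjusted p = 1.43e-10) and 2.30 ± 0.18 (adjusted p = 2.96e-08), respectively. Combo was above Anti-IL17A by 1.43 ± 0.18 (adjusted p = 1.70e-05), and against the agonist the log2 fold change was 0.68 ± 0.18 and not called.

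**Figure D3:**
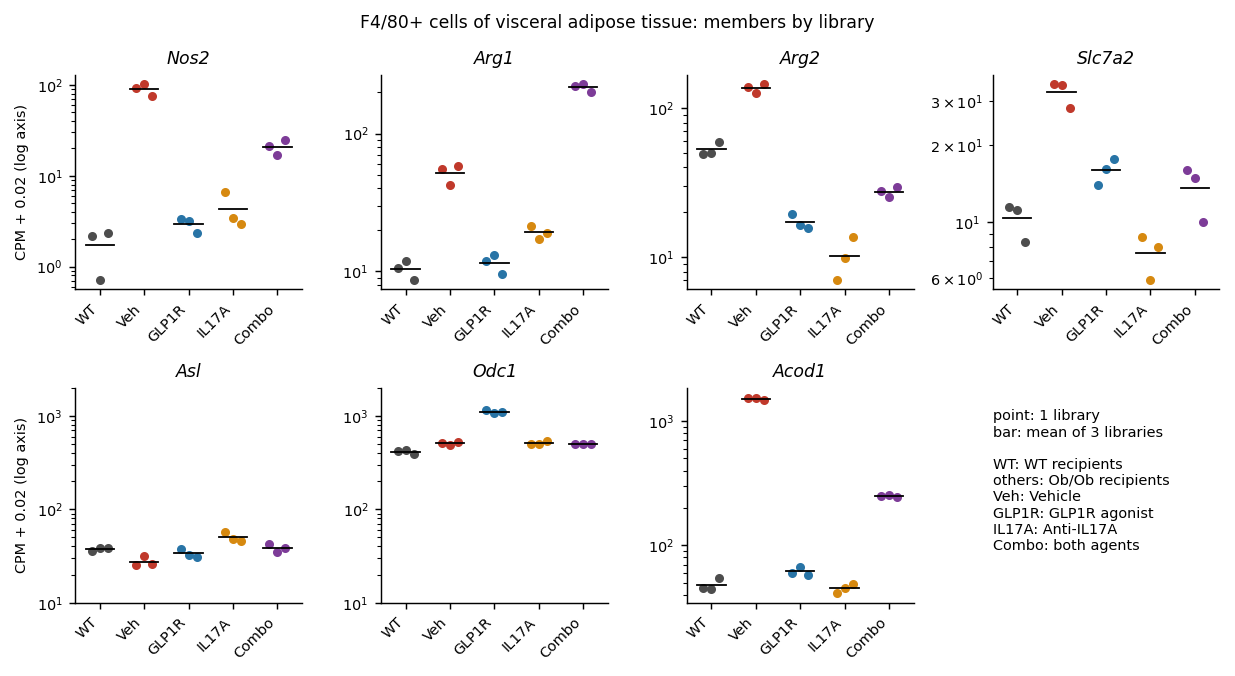
Level of the 7 measured members in ATMs (CPM plus 0.02, log axis with its own range in each panel) in the 5 groups, each point 1 library and each bar the mean of 3. Arg1 is highest in Combo (199 to 227 CPM), Odc1 with the GLP1R agonist (1079 to 1165 CPM), and Nos2, Arg2, Slc7a2 and Acod1 in Vehicle.

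Per kilobase of exon, which allows the arginase isoforms to be set beside each other, Arg1 made up 0.467% to 0.886% of arginase transcripts in BM of WT and 74.9% to 76.7% in Vehicle, and 0.343% to 1.70% in the 9 treated libraries. In ATMs the share of Arg1 was 8.61% to 13.2% in WT, 17.8% to 20.5% in Vehicle, 28.1% to 34.0% with the GLP1R agonist, 47.0% to 66.1% with Anti-IL17A and 81.2% to 85.2% in Combo, with no overlap between any of the 5 groups. The summed arginase level in ATMs was 107 to 127 CPM per kb in Vehicle and 110.1 to 119.8 in Combo, which overlap, and it was made mostly of Arg2 in Vehicle and mostly of Arg1 in Combo. It was 14.6 to 18.9 with the single agents and 39.4 to 45.4 in WT. In BM that sum was 41.7 to 42.8 in Vehicle, 27.9 to 28.7 in WT and 9.98 to 21.02 in the treated libraries.

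The ratio of Nos2 to Arg1 per kilobase was 0.349 to 0.373 in BM of Vehicle and 24.2 to 47.2 in BM of Combo, the latter over 5 to 9 Arg1 counts a library. In ATMs it was 0.655 to 1.21 in Vehicle and 0.0376 to 0.0626 in Combo. WT libraries held 0 in BM and 0.0297 to 0.133 in ATMs. The ratio in Combo therefore lay above Vehicle in every BM library and below it in every ATM library.

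**Figure D4:**
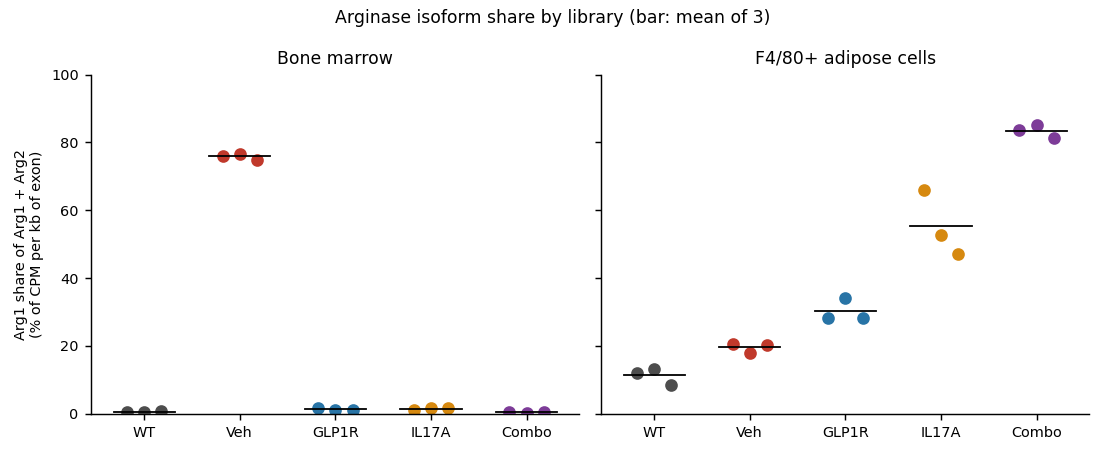
Share of Arg1 in the sum of Arg1 and Arg2 (percent of CPM per kb of exon) in BM and ATMs, each point 1 library and each bar the mean of 3. The share is near 75% in BM of Vehicle and under 2% in every other BM library, and in ATMs it runs from 8.61% in a WT library to 85.2% in a Combo library.

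Slc7a2, which carries arginine and other cationic amino acids into the cell, was highest in Vehicle in both tissues. In BM the Vehicle libraries had 5.37, 5.27 and 5.62 CPM against 0.820, 0.854 and 0.742 CPM in WT (24 to 33 counts). It fell with the GLP1R agonist to 2.07, 1.28 and 1.73 CPM (log2 fold change -1.68 ± 0.18, adjusted p = 6.05e-11), with Anti-IL17A to 0.933, 0.826 and 0.833 CPM (log2 fold change -2.65 ± 0.20, adjusted p = 2.46e-15) and in Combo to 0.886, 0.851 and 1.02 CPM (log2 fold change -2.56 ± 0.20, adjusted p = 8.26e-15). Anti-IL17A, Combo and WT overlapped. Combo lay below the agonist by a log2 fold change of -0.88 ± 0.22, inside the fold limit, which it passed without GLP1R agonist replicate 2 (-1.05).

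In ATMs Slc7a2 had 34.8, 34.5 and 28.2 CPM in Vehicle and 11.4, 11.2 and 8.31 CPM in WT, a rise of 1.66 ± 0.22 (adjusted p = 8.97e-06). It fell with Anti-IL17A to 8.70, 5.90 and 7.94 CPM (log2 fold change -2.11 ± 0.22, adjusted p = 7.00e-07) and in Combo to 16.0, 14.8 and 10 CPM (log2 fold change -1.25 ± 0.21, adjusted p = 0.000155). The fall with the GLP1R agonist, to 13.9, 16.1 and 17.8 CPM, lay at the fold limit, with -1.03 ± 0.21 (adjusted p = 0.000767), and it was -0.94 without GLP1R agonist replicate 1, -0.97 without Vehicle replicate 1 and -0.99 without Vehicle replicate 2. Combo vs Anti-IL17A was 0.86 ± 0.21 and not called, and 1.04 without Combo replicate 3.

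Asl, which splits argininosuccinate into arginine and fumarate, was called in none of the 14 comparisons of 2 groups. In BM its mean ranged from 20.6 ± 0.474 CPM with the GLP1R agonist to 38.2 ± 2.01 in Combo, with 29.1 ± 1.82 in WT, 33.6 ± 1.20 in Vehicle and 27.6 ± 0.358 with Anti-IL17A. In ATMs it ranged from 27.4 ± 3.40 CPM in Vehicle to 50.7 ± 6.04 with Anti-IL17A, and the neighbours Combo (38.5 ± 3.78), WT (37.6 ± 1.28), GLP1R agonist (33.7 ± 3.84) and Vehicle overlapped in turn. The changes nearest the fold limit were Combo vs GLP1R agonist in BM (log2 fold change 0.89 ± 0.06, adjusted p = 9.77e-18) and Anti-IL17A vs Vehicle in ATMs (0.89 ± 0.13, adjusted p = 2.51e-05).

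Odc1, which makes putrescine from ornithine, differed from the other members in being highest with the GLP1R agonist. In ATMs the agonist libraries had 1165, 1079 and 1101 CPM against 512, 493 and 530 CPM in Vehicle, a rise of 1.12 ± 0.05 (adjusted p = 9.75e-12). Anti-IL17A (498, 497 and 544 CPM) and Combo (498, 505 and 502 CPM) overlapped Vehicle, and WT libraries had 423, 430 and 395 CPM. Combo vs agonist was -1.15 ± 0.05 (adjusted p = 2.16e-11). In BM the agonist libraries were again the highest, at 324, 327 and 332 CPM against 227, 225 and 222 CPM in Vehicle, where the log2 fold change was 0.54 ± 0.02 (adjusted p = 3.20e-22) and inside the fold limit. WT (213 to 219 CPM) and Combo (209 to 213 CPM) overlapped in BM.

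Acod1 was among the members with the widest range. In BM the Vehicle libraries had 121, 120 and 122 CPM against 6.89, 7.41 and 6.68 CPM in WT. It fell with the GLP1R agonist to 3.58, 4.18 and 4.37 CPM, below every WT library (log2 fold change -4.90 ± 0.07 against Vehicle, adjusted p = 1.31e-40), with Anti-IL17A to 11.7, 9.68 and 10.1 CPM (log2 fold change -3.53 ± 0.06, adjusted p = 1.35e-37) and in Combo to 11.3, 11.4 and 10.7 CPM (log2 fold change -3.44 ± 0.06, adjusted p = 3.76e-37). The last 2 groups overlapped. Combo exceeded the agonist by 1.46 ± 0.09 (adjusted p = 1.99e-18).

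In ATMs Acod1 had 1525, 1542 and 1473 CPM in Vehicle against 45.5, 44.7 and 54.2 CPM in WT, a rise of 4.97 ± 0.09 (adjusted p = 2.01e-16). Anti-IL17A libraries returned to the WT range (41.5, 45.4 and 48.6 CPM), a log2 fold change of -5.07 ± 0.09 (adjusted p = 1.44e-16), and GLP1R agonist libraries to 60.2, 67.6 and 58.2 CPM, a log2 fold change of -4.61 ± 0.08 (adjusted p = 4.92e-16). Combo kept 247, 254 and 247 CPM, with a log2 fold change of -2.60 ± 0.08 against Vehicle (adjusted p = 1.62e-13) and of 2.37 ± 0.08 against WT (adjusted p = 1.19e-12). Per kilobase, Acod1 was the most abundant of the measured members in ATMs of Vehicle, at 577 ± 13.7 CPM per kb, followed by Odc1 at 150.3 ± 5.36 and Arg2 at 95.2 ± 6.75, whereas in ATMs of WT Odc1 was first at 122 ± 5.47 and Acod1 at 18.4 ± 2.02.

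**Figure D5:**
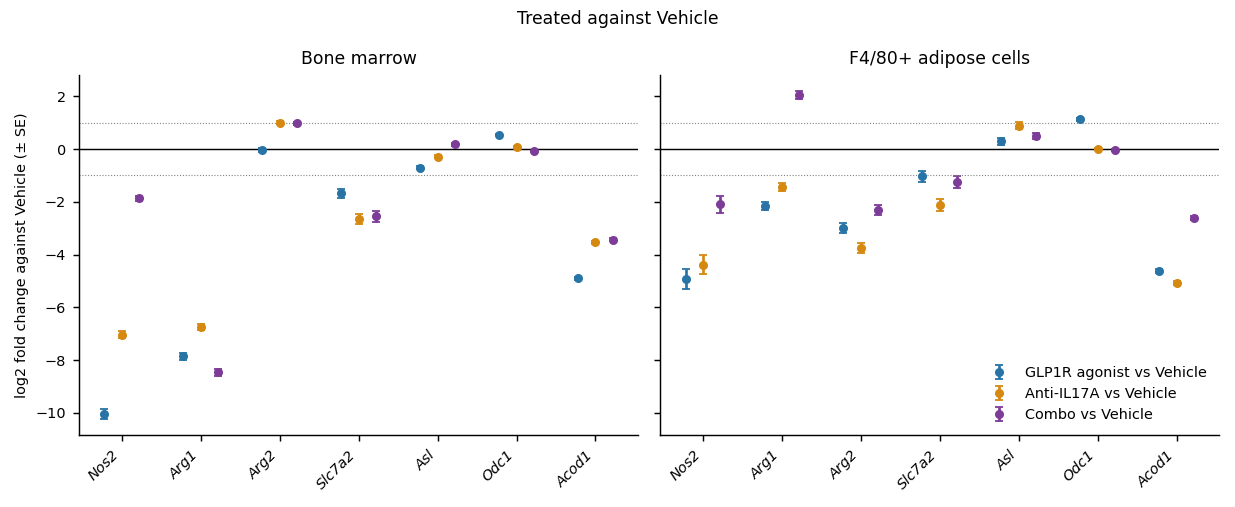
Log2 fold change of each treated group against Vehicle (± SE, edgeR) for the 7 measured members in BM and ATMs, with dotted lines at the fold limit of 1 in either direction. Arg1 is at -8.46 in BM and 2.06 in ATMs for Combo, and Odc1 passes the upper line in ATMs with the GLP1R agonist alone.

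Set against WT, Combo in BM held 1 member called higher, Nos2, and none lower, with 4.40% of all genes higher and 9.93% lower. As these WT libraries enter the contrast that chose Nos2, nothing is read from that count. In ATMs Combo held 3 higher (Nos2, Arg1 and Acod1) and none lower, with 7.08% and 14.5% of all genes. Combo against the GLP1R agonist gave Nos2, Arg2 and Acod1 higher in BM and none lower (4.59% and 8.57% of all genes), and in ATMs Nos2, Arg1 and Acod1 higher and Odc1 lower (5.38% and 13.4%). Against Anti-IL17A, Nos2 was higher and Arg1 lower in BM (1.04% and 4.63%), and in ATMs Nos2, Arg1, Arg2 and Acod1 were higher and none lower (3.73% and 10.5%).

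Whether Combo equals the sum of the single agents on the log2 scale was tested as a contrast of the 4 Ob/Ob groups, in which a positive value means a higher level in Combo than the sum of both effects gives. In BM 4 of the 6 members other than Nos2 departed upward and none downward, against a background of 9.59% of all genes upward and 11.5% downward. These were Arg1 (6.12 ± 0.56, adjusted p = 1.08e-12), Acod1 (4.99 ± 0.10, adjusted p = 4.10e-34), Slc7a2 (1.77 ± 0.31, adjusted p = 3.29e-06) and Asl (1.18 ± 0.08, adjusted p = 7.48e-17). Under each single agent Arg1 was already at 9 to 29 counts a library, so a further fall of that size could not have been counted. In both tissues the contrast adds the Vehicle level. A gene high in Vehicle thus departs upward when Combo and both single agents bring it to a similar level. Slc7a2 in BM departed although Anti-IL17A, Combo and WT overlapped, at means of 0.864, 0.919 and 0.806 CPM. In ATMs Nos2 (7.21 ± 0.51, adjusted p = 8.86e-09), Acod1 (7.08 ± 0.11, adjusted p = 1.21e-16), Arg1 (5.66 ± 0.22, adjusted p = 4.34e-12), Arg2 (4.42 ± 0.26, adjusted p = 8.29e-10) and Slc7a2 (1.89 ± 0.30, adjusted p = 8.07e-05) departed upward and Odc1 downward (-1.16 ± 0.06, adjusted p = 5.38e-10), where 12.9% of all genes departed upward and 23.0% downward.

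The effects of treatment were compared between the tissues with limma in 1 fit of the 30 libraries over the 13076 genes in both tables, for the members other than Nos2, with each tissue scaled by itself. The largest difference was that of Arg1 in Combo vs Vehicle, which fell in BM and rose in ATMs, a difference of 10.49 ± 0.38 (ATM minus BM, log2, adjusted p = 1.05e-24). Arg2 differed the other way in the same comparison (-3.28 ± 0.13, adjusted p = 2.95e-23), and the fall of Slc7a2 was smaller in ATMs (1.27 ± 0.29, adjusted p = 0.000257). Of the 6 members, 2 differed upward and 1 downward for Combo, against 16.9% and 10.5% of all genes. For the GLP1R agonist 2 differed upward (Arg1 and Asl) and 1 downward (Arg2), against 16.1% and 9.72% of all genes, and for Anti-IL17A 2 upward (Arg1 and Asl) and 2 downward (Arg2 and Acod1), against 17.0% and 12.2%. The difference of Asl for the agonist was 1.01 ± 0.17 and lay under the limit without any 1 of 5 libraries, at 0.91 without ATM GLP1R agonist replicate 1, 0.95 without ATM Vehicle replicate 1, 0.97 without ATM Vehicle replicate 3, 0.99 without BM GLP1R agonist replicate 3 and 0.98 without BM Vehicle replicate 2.

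The genes around the members were read from lists that were chosen with earlier results known. Of the list for the cofactor of nitric oxide synthases and for nitric oxide signalling, 10 genes were tested in BM and 13 in ATMs. In BM 2 rose and 1 fell with the GLP1R agonist, 2 rose and 2 fell with Anti-IL17A, and 2 rose and 2 fell in Combo, where 7.60%, 7.65% and 6.58% of all genes rose and 9.08%, 8.46% and 11.1% fell, with a median log2 fold change of 0.31, 0.33 and 0.37 beside 0.01, 0.01 and 0.02 over all genes. Gch1, the first enzyme of tetrahydrobiopterin synthesis, had 62.3 ± 1.06 CPM in BM of Vehicle and 16.3 to 18.3 on average in the other groups, and it fell by 1.77, 1.79 and 1.93 (adjusted p = 5.28e-27, 4.59e-27 and 5.90e-28). In ATMs 3 of the 13 rose and 7 fell in Vehicle vs WT (12.5% and 22.9% of all genes), and 2 rose and 2 fell with the agonist, 5 and 3 with the antibody, and 4 and 3 in Combo (20.8% and 10.9%, 22.4% and 13.1%, and 14.1% and 12.2% of all genes). Gch1 rose there in Vehicle vs WT by 1.92 (adjusted p = 7.48e-12) and fell in Combo by 2.21 (adjusted p = 1.86e-12). Gucy1a1, a subunit of the nitric oxide receptor guanylate cyclase, rose in BM with the agonist by 2.87 (adjusted p = 2.85e-10) and with the antibody by 2.03 (adjusted p = 2.48e-06). Both rises of Gucy1a1 start from 6 to 14 counts a library in Vehicle. Nos3, the endothelial synthase, fell in ATMs with the agonist by 1.85 (adjusted p = 1.42e-06) and with the antibody by 1.84 (adjusted p = 1.34e-06), where the sum of 3 endothelial markers was 1109 to 1264 CPM in Vehicle and 336 to 439 in the other groups, the part of which was not tested. Nos1 had 0 counts in the ATM libraries of Vehicle and 53 to 107 in WT.

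Among transporters of cationic amino acids, none of 6 tested in BM rose under treatment and 1, 2 and 2 fell with the agonist, the antibody and both (9.08%, 8.46% and 11.1% of all genes fell). Of 7 tested in ATMs, 1 rose and none fell in Vehicle vs WT (12.5% of all genes rose and 22.9% fell) and with the agonist (20.8% and 10.9%). With the antibody 1 rose and 3 fell (22.4% and 13.1%), and in Combo none rose and 2 fell (14.1% and 12.2%). Slc3a2 is the heavy chain that several of them need. It had 221 ± 8.24 CPM in BM of Vehicle against 99.7 ± 6.45 in WT, and fell with Anti-IL17A by 1.05 (adjusted p = 5.25e-27) and in Combo by 1.11 (adjusted p = 9.00e-28). In ATMs it rose in Vehicle vs WT by 1.30 (adjusted p = 2.73e-13) and fell with Anti-IL17A by 1.02 (adjusted p = 5.15e-12) and in Combo by 1.32 (adjusted p = 2.95e-13). Slc7a1, the constitutive arginine transporter, fell in ATMs with Anti-IL17A by 1.12 (adjusted p = 7.48e-06) and in Combo by 1.42 (adjusted p = 7.31e-07).

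Of 8 genes of the urea cycle and of ornithine, proline and creatine metabolism tested in each tissue, 3 rose and none fell in BM under each treatment (7.60%, 7.65% and 6.58% of all genes rose), and 5 were not called. Gatm in BM had 59.5 ± 1.12 CPM with the agonist and 97.8 ± 2.22 in Vehicle, a log2 fold change of -0.72 that was not called, and Aldh18a1 was highest in Vehicle at 62.2 ± 2.29 CPM against 44.0 ± 0.749 in WT. In ATMs 6 fell and none rose in Vehicle vs WT (22.9% of all genes fell), and 3 rose under each treatment (20.8%, 22.4% and 14.1% rose), while 1 fell with the GLP1R agonist. Gatm, which transfers the amidino group of arginine to glycine, had 11.4 ± 0.915 CPM in ATMs of Vehicle, 28.7 ± 1.51 in WT, 88.2 ± 4.72 with Anti-IL17A and 68.5 ± 0.929 in Combo, a rise against Vehicle of 2.95 (adjusted p = 7.41e-12) and 2.59 (adjusted p = 4.13e-11). Gamt, the next enzyme of creatine synthesis, rose in ATMs by 3.05 with Anti-IL17A (adjusted p = 5.19e-05) and by 2.25 in Combo (adjusted p = 0.000847), and in BM by 2.67 (adjusted p = 1.48e-07) and 2.98 (adjusted p = 8.26e-09). The BM rises of Gamt start from 2 to 10 counts a library in Vehicle. Pycr1, which makes proline, rose in ATMs of Combo by 2.36 (adjusted p = 2.76e-05).

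Downstream of Odc1, 11 polyamine genes were tested in each tissue. In ATMs 2 rose and none fell in Vehicle vs WT (12.5% of all genes rose and 22.9% fell), and none rose and 1 fell with the agonist (20.8% and 10.9%). With the antibody 2 rose and 2 fell (22.4% and 13.1%), and in Combo 1 rose and 1 fell (14.1% and 12.2%). In BM the treated groups held 1 call, of Azin2 with Anti-IL17A (-1.23, adjusted p = 1.25e-07). In ATMs Smox, a spermine oxidase, rose in Vehicle vs WT by 2.15 (adjusted p = 1.40e-12) and fell with the agonist by 1.77 (adjusted p = 1.55e-11) and the antibody by 2.05 (adjusted p = 2.39e-12). Sat1, which acetylates polyamines for export, rose in Vehicle vs WT by 1.58 (adjusted p = 1.56e-14) and fell with Anti-IL17A by 1.36 (adjusted p = 9.37e-14) and in Combo by 1.30 (adjusted p = 2.22e-13). Srm and Sms make spermidine and spermine, and Sms rose in ATMs with Anti-IL17A by 1.57 (adjusted p = 2.24e-06) and in Combo by 1.27 (adjusted p = 2.46e-05), while Srm was not called against Vehicle in either tissue. Odc1 was therefore accompanied by no other called polyamine gene in the rise under the GLP1R agonist, where Smox was the 1 gene called and fell.

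Of 15 genes around itaconate and the tricarboxylic acid cycle, 5 fell and none rose in ATMs in Vehicle vs WT, where 22.9% of all genes fell. With the agonist, the antibody and both, 2, 4 and 3 rose and none fell, where 20.8%, 22.4% and 14.1% of all genes rose, so these counts lie near the background. Idh2, the mitochondrial isocitrate dehydrogenase, had 21.9 ± 2.98 CPM in ATMs of Vehicle and 86.3 to 105 on average in the other groups, a log2 fold change of -2.25 against WT (adjusted p = 9.64e-11) and rises of 1.98, 2.26 and 2.19 (adjusted p = 5.15e-10, 9.39e-11 and 1.65e-10). Idh1 fell by 1.60 in Vehicle vs WT (adjusted p = 2.47e-12), and in BM it rose with Anti-IL17A by 1.12 (adjusted p = 2.14e-28) and in Combo by 1.31 (adjusted p = 6.99e-31). Sdha, the succinate dehydrogenase subunit whose complex itaconate is known to inhibit, fell in ATMs of Vehicle by 1.18 (adjusted p = 4.59e-11).

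Of 12 genes known to act in the induction of Nos2, none rose in BM under treatment, and 4, 4 and 3 fell with the agonist, the antibody and both, where 9.08%, 8.46% and 11.1% of all genes fell and 7.60%, 7.65% and 6.58% rose. In ATMs 5 rose and none fell in Vehicle vs WT (12.5% and 22.9% of all genes), and 2, 5 and 4 fell and 0, 1 and 1 rose under treatment (10.9%, 13.1% and 12.2% of all genes fell). In BM Irf1 fell by 1.51, 1.46 and 1.40 (adjusted p = 7.47e-33, 2.68e-32 and 1.24e-31). Ifng, which encodes interferon gamma, had 3.72 ± 0.367 CPM in BM of Vehicle and 0.119 ± 0.108 in Combo. In ATMs Ifng ran the other way and rose with Anti-IL17A by 1.42 (adjusted p = 4.13e-06) and in Combo by 2.01 (adjusted p = 1.05e-07), while Irf1 fell in both (by 2.48 and 1.94, adjusted p = 1.42e-14 and 3.04e-13). The sum of 6 T and NK cell markers in ATMs was 62.4 to 68.8 CPM in Vehicle, 229 to 242 with the agonist, 331 to 349 with Anti-IL17A and 555 to 571 in Combo. In BM that sum was 44.4 to 47.0 in Vehicle and 23.4 to 26.0 in Combo. The part of these cells in the Ifng level was not tested. Hif1a rose in ATMs of Vehicle by 1.26 (adjusted p = 4.00e-11) and fell with Anti-IL17A by 1.43 (adjusted p = 9.39e-12).

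Of 9 genes known to act in the induction of Arg1, 5 rose in ATMs of Vehicle vs WT and 5 fell in Combo vs Vehicle, where Arg1 itself rose, and 12.5% of all genes rose in the first comparison and 12.2% fell in the second. Those falling included Il4ra (by 1.48, adjusted p = 4.20e-11) and Il13ra1 (by 1.90, adjusted p = 3.46e-08), receptor chains for IL-4 and IL-13, and Cebpb (by 1.59, adjusted p = 0.00338) and Stat3 (by 1.21, adjusted p = 9.27e-11), transcription factors known to act on Arg1. In BM 8 of the 9 were tested, and Il4ra had 296 ± 3.24 CPM in Vehicle, 99.2 ± 5.04 in WT, 116 ± 2.11 with the agonist, 119 ± 2.61 with the antibody and 252 ± 5.71 in Combo, above the single agents by 1.12 and 1.08 (adjusted p = 5.34e-30 and 1.08e-28).

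The genes nearest in profile were those with the smallest root mean square difference of centred log2 CPM over the 15 libraries of a tissue, which is a description. Nearest to Nos2 in BM were Xist (1.13), Lipg (1.81), Spint1 (2.55), Cxcl13 (2.80) and Saa3 (2.83), and the first of these is the X-linked transcript whose level marks female cells. Nearest to Arg1 in BM were Sct (0.623), Cfb (0.659), Cxcl10 (0.676), Ptx3 (0.790) and Apol9a (0.791). In ATMs the profile of Nos2 was nearest to Mcemp1 (0.493), Il1r2 (0.608), G0s2 (0.642), Pram1 (0.649) and Muc1 (0.684), and among the genes near Arg1 were Hist1h2bk (0.663), Slc4a1 (0.717), Prtn3 (0.733) and Elane (0.773), of which Prtn3 and Elane are primary granule genes and Slc4a1 is an erythroid gene.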

How the data were processed

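The deposited values are raw counts per gene, in 1 table for each tissue. According to the study's methods and processing notes the authors aligned unstranded paired-end poly(A) RNA-seq reads to mm10 with STAR 2.7.2a and counted them with featureCounts 2.0.1. The 30 libraries, labelled as 1 batch, gave 24876074 to 45300263 counts each. Genes kept by filterByExpr were scaled by TMM and fitted with the edgeR 4.0.16 quasi-likelihood test over the 15 libraries of a tissue (R 4.3.3). Calls required both an adjusted p (Benjamini-Hochberg over all genes of the tissue) under 0.05 and an absolute log2 fold change above 1. The p-values measure the spread between the 3 libraries of a group, a coefficient of variation of 3.51% in BM and 32.5% in ATMs. Whether the small spread in BM holds all of that between mice was not tested, and the very small p-values there rest on it. Tissues were compared with limma 3.58.1 (voom with quality weights). A count of 0 allows up to 3 counts, which covers counting error only. All measured members were named, and from each other list up to 4 called genes per comparison with the largest change and a mean of at least 10 counts, with a few genes named beyond this. The members and lists were chosen with earlier results of these data known. Alternatives were DESeq2 1.42.0, other size factors, other filters and limits, the replicate block, and leaving out each library. Ass1 was not analysed here. A few listed genes are counted in their lists but not reported here by name.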

Additional observations from a re-analysis of the deposited data

Results flagged for a closer look

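The effect of treatment against Vehicle differed between the tissues for 10 pairs of a member and a treatment, by the limma test of the difference itself (ATM minus BM, log2, 30 libraries, Benjamini-Hochberg over 13076 genes). For Arg1 it was 5.63 with the GLP1R agonist (adjusted p = 1.34e-16), 5.31 with Anti-IL17A (adjusted p = 1.19e-19) and 10.49 in Combo (adjusted p = 1.05e-24). For Arg2 it was -2.95 (adjusted p = 6.71e-19), -4.79 (adjusted p = 3.17e-25) and -3.28 (adjusted p = 2.95e-23), respectively. For Asl it was 1.01 with the GLP1R agonist (adjusted p = 3.33e-06) and 1.19 with Anti-IL17A (adjusted p = 1.84e-08). For Acod1 it was -1.54 with Anti-IL17A (adjusted p = 3.83e-17), and for Slc7a2 it was 1.27 in Combo (adjusted p = 0.000257). Nos2 was left out because it was selected on its BM level in Vehicle. With 3 libraries a group, no single library was tested for standing apart.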

How the results depend on the processing

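Of 268 recomputed counts of members called, 250 stayed within 1.5 times the reported count. With no limit on the fold change, the counts in BM became 7 for Anti-IL17A vs Vehicle and for Combo vs Vehicle (4 each with the limit), 6 for Combo vs GLP1R agonist (3), 4 for Combo vs Anti-IL17A (2) and 5 for Combo vs WT (1), and 5 for Combo vs WT in ATMs (3) and for the tissue difference with the GLP1R agonist (3). With at least 10 counts in every library, which removes Nos2 and Arg1 from BM by construction, they were 3 for Vehicle vs WT and for the departure from additivity (5 each), 2 for each treated group vs Vehicle, 1 for Combo vs GLP1R agonist (where Arg2 also fell short, at 0.985) and 0 for Combo vs Anti-IL17A and Combo vs WT. Leaving out 1 library gave 1 to 2 for Combo vs WT in BM.

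Of the members' log2 values, 1754 kept their direction and side of the threshold, 39 passed it, 10 fell short of it and 9 changed sign, the last all in values that were not called. Leaving out 1 library, Odc1 in ATMs ranged from -0.041 to 0.034 for Anti-IL17A vs Vehicle (-0.0029 without Vehicle replicate 1, -0.020 without Vehicle replicate 2) and from -0.057 to 0.012 for Combo vs Anti-IL17A, Asl from -0.040 to 0.10 for Combo vs WT in ATMs, and Arg2 from -0.035 to 0.037 for the departure in BM (-0.0065 without Anti-IL17A replicate 3). That departure was -0.0062 with at least 10 counts in every library and -0.0052 in the 4 Ob/Ob groups alone. The cause was not tested.

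The replicate numbers did not pair the libraries, since deviations of same-numbered libraries correlated at -0.033 to 0.064. With the replicate block, the count was 4 for Combo vs Vehicle in BM, and the block changed no member's call. Without a fold limit 7015 to 10227 genes were called in BM (757 to 2819 with it). In BM, Nos2 rests on 0 to 18 counts a library outside Vehicle and Combo. Arg1 rests on 5 to 29 outside Vehicle, with the fewest in Combo (5 to 9). Differences among those groups are limited by depth.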
